A study of Mus musculus with 11 samples.

Results

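Cells that met a rule on 4 myelin genes, meant to find mature oligodendrocytes, which wrap axons of the central nervous system in myelin, were a small group of the cells left after myelin was depleted from these samples, and are described here. They are called oligodendrocytes below by this rule, and not all of them were mature cells. Kept cells had between 500 and 6000 genes and less than 25% of their UMIs from mitochondrial genes. A member was a kept cell that carried at least 4 UMIs of the 4 myelin genes Mog, Mag, Ermn and Mobp in sum, at most 2 UMIs of the endothelial genes Cldn5 and Flt1, and at most 3 of the microglial genes C1qa and C1qb. The rule found 224 members among 50625 kept cells of all 11 libraries. A UMI, or unique molecular identifier, marks 1 captured transcript copy. Since counts of the marker genes chose the cells, the number of members per library, the levels of these genes and differences to other cell types are descriptions with no test.

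Cerebral cortex of C57BL/6 mice was dissociated enzymatically, spun in bovine serum albumin to deplete myelin, and captured as single cells with the 10x Chromium 3′ v2 assay. Untreated mice gave 4 juvenile libraries (postnatal day 10), 3 adult libraries (7–11 weeks) and 2 aged libraries (18 months), with tissue of 6 mice pooled for juvenile and adult samples and of 3 mice for aged samples. The 2 EAE libraries pooled 3 female mice of 7–11 weeks with experimental autoimmune encephalomyelitis, an autoimmune demyelinating disease raised with peptide MOG35–55 of myelin oligodendrocyte glycoprotein in Complete Freund's Adjuvant and with pertussis toxin. The untreated adults were therefore the controls of matching age, without adjuvant or toxin. The labels do not tie a library to its own pool of mice, so the p-values below measure only the spread between libraries, which may be technical, and members of 1 library are not replicates.

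Total UMIs per library ranged from 15755504 to 34326349, and the library medians of UMIs in a kept cell from 2420 to 4199.5. Adult 2 and Adult 3 differed least of the adult libraries, with a chi-square per degree of freedom of 1.47 over genes in oligodendrocytes against 3.54 and 2.57 for Adult 1 with each of them, and were counted as 1 unit. Juvenile 1 and Juvenile 2 were as close in endothelial cells (1.68, against 2.18 for Adult 2 with Adult 3) but not in oligodendrocytes (6.01), and were kept apart. EAE 1 and EAE 2 (2.39 in endothelial cells and 2.24 in members) and Aged 1 and Aged 2 (3.79 and 2.29) were kept apart too. These values do not show whether libraries came from separate pools of mice. Pairs of libraries shared 10 to 113 cell barcodes, and 18 of the 224 members had a barcode that also occurred in another library. Scrublet called 818 cells doublets (1.62%), among them 2 members.

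Oligodendrocytes arise from precursors that divide and carry Pdgfra and Cspg4, pass through a committed stage marked by Gpr17, and then become newly formed cells that start to make myelin. Mature cells keep up a membrane rich in cholesterol and galactolipids that is compacted with the help of myelin basic protein (Mbp), carry Mog on the outermost layer and Mag next to the axon, and supply the axon with lactate and other metabolites. In the mouse cortex myelination is at an early stage in the second postnatal week and far advanced in adults.

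The adult libraries held 104 of the 224 members (46.4%). There were 14, 22, 6 and 3 members in Juvenile 1 to 4, 16, 45 and 43 in Adult 1 to 3, 12 and 14 in the aged libraries, and 32 and 17 in the EAE libraries. As a share of kept cells this was 0.523%, 0.862%, 0.144% and 0.0730% in the juvenile, 0.503%, 1.19% and 1.11% in the adult, 0.236% and 0.295% in the aged, and 0.385% and 0.210% in the EAE libraries. The mean share was 0.400% ± 0.366 (SD, n = 4) in juvenile, 0.825% ± 0.456 (SD, n = 2 units) in adult, 0.265% ± 0.0417 (SD, n = 2) in aged and 0.297% ± 0.123 (SD, n = 2) in EAE samples. The juvenile and adult ranges overlapped, since Adult 1 lay below Juvenile 1 and 2. This overlap depended on the rule. Without the limits on endothelial and microglial genes Adult 1 was at 1.13% and Juvenile 1 and 2 at 0.523% and 0.940%. After thinning cells to 1000 UMIs they were at 0.949%, 0.449% and 0.668%. In both settings every adult library lay above every juvenile one, and under the other settings tried the ranges overlapped. The shares reflect what survived depletion as well as what the tissue held, and these cannot be told apart.

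**Figure D1:**
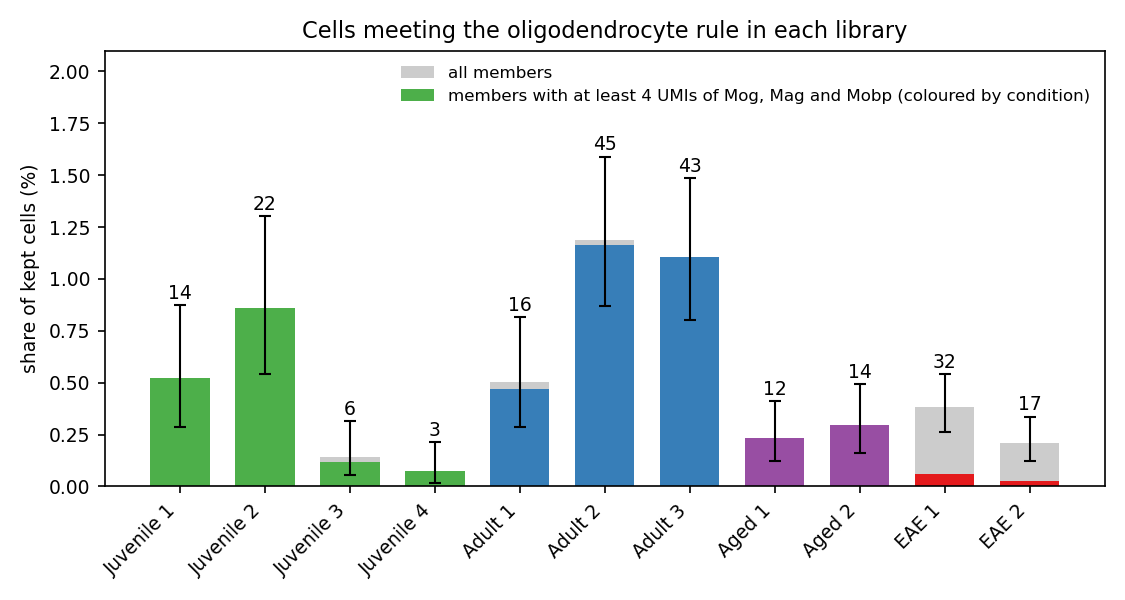
Share of kept cells (percent, y axis) that met the rule in each of the 11 libraries, with exact 95% binomial intervals that cover counting error only and the number of members above each bar. The coloured part of a bar is the members with at least 4 UMIs of Mog, Mag and Mobp in sum, which is nearly the whole bar except in the EAE libraries, where 5 of 32 and 2 of 17 members remain.

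The 4 markers did not pick out the same cells in every condition. In adult members, other myelin genes that the rule did not use went along with the markers: Mbp had a UMI in all 104, Opalin, a myelin paranodal protein, in 91, and Mal, a myelin membrane protein, in 99. The median number of marker UMIs per member was 22, 62 and 60 in Adult 1 to 3 and 22 and 35 in the aged libraries, and all 26 aged members had Mbp and 25 had Mal. In the EAE libraries the median was 5.5 and 5, close to the threshold of 4.

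Of the 49 EAE members, 43 had 3 to 37 UMIs of Cd3 genes, part of the T cell receptor complex, and in 42 every marker UMI came from Ermn. Pooled over these 42 cells, Mbp was at 63.1 CPM. Cd3e was present in 42 of the 49, Trbc2, a T cell receptor chain, in 43, and Cytip, a lymphocyte adaptor protein, in 43. The label therefore does not hold for most EAE members, which are called Ermn-only members below. The other 7 had at least 4 UMIs of Mog, Mag and Mobp in sum. Of these, 5 members, 3 in EAE 1 and 2 in EAE 2, had UMIs of each of Mog, Mag, Mobp, Ermn and Opalin and none of Cd3, and pooled over them Mbp was at 9387 CPM. The remaining 2 had Mobp but no Mog or Mag, with Mbp at 1889.6 CPM. Of these, 1 in EAE 1 had 23 Cd3 UMIs beside 5 marker UMIs and no Ermn UMI, so the label is in doubt for it too. With at least 4 UMIs of Mog, Mag and Mobp the count was 44 of 45 in juvenile, 102 of 104 in adult and all 26 in aged libraries, so adult samples held 57.0% of the 179 such members (46.4% of all members). This requirement was chosen after the data were seen and uses genes of the rule, so its counts carry no test.

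**Figure D2:**
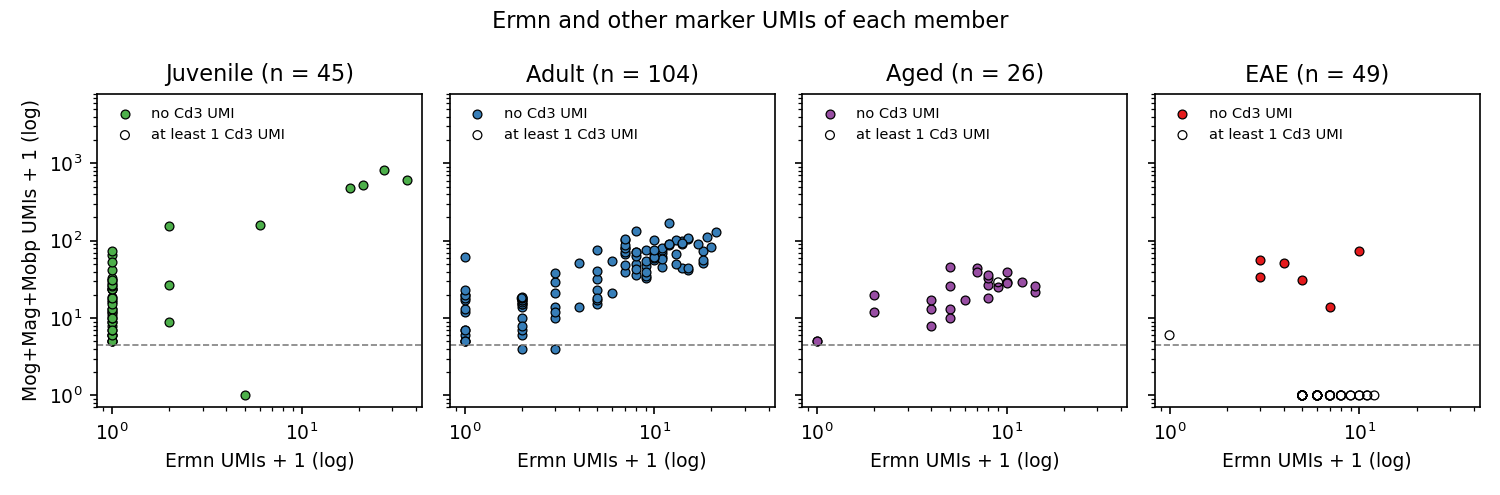
Each point is a member, with Ermn UMIs plus 1 on the x axis and the summed UMIs of Mog, Mag and Mobp plus 1 on the y axis, both log scales, for the 4 conditions; filled points have no Cd3 UMI and open points at least 1, and members above the dashed line have at least 4 UMIs of Mog, Mag and Mobp. The 42 EAE members below the line are open points with no Mog, Mag or Mobp UMI, and 7 EAE members lie above it.

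Just outside the rule the picture was the same. Of cells with 3 marker UMIs, 35 were in EAE libraries, and in all 35 the UMIs were of Ermn alone and came with a Cd3 UMI, as in all 13 EAE members with exactly 4. In adult libraries 3 cells had 3 marker UMIs and 4 cells had exactly 4, in juvenile libraries 5 and 4, and in aged libraries 1 and 2. Of these, 1 juvenile member with exactly 4 had UMIs of Ermn alone, without a Cd3 UMI. The limits on endothelial and microglial genes removed 70 further adult cells, 67 of them with at least 4 UMIs of Mog, Mag and Mobp.

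Ermn encodes ermin, a cytoskeletal protein of the myelin sheath. Over all kept cells, 380 of 1606 EAE cells with at least 3 Cd3 UMIs (23.7%) had an Ermn UMI and 53 had 4 or more, against 1 of 84 such cells in adult, 9 of 289 in aged and 0 of 97 in juvenile libraries, which allows a share of up to 3.09%. These cells held 801 of the 951 Ermn UMIs of the EAE libraries but just 20 UMIs of Mog, Mag and Mobp. Ermn lies on the minus strand at chr2:58045113-58052864 (GRCm38, GENCODE M21), where 748 bases of its 3′ end overlap the end of Galnt5 on the other strand (chr2:57997884-58045860). Whether the authors counted by strand is not given in the sources used here, so reads of such overlapping ends cannot be told apart. Cytip, at chr2:58129137-58195532, starts a gap of 76272 bases away on the minus strand, and the 224 EAE cells with at least 5 Cytip UMIs and no Cd3 UMI had 0 Ermn UMIs.

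Set against astrocytes, the other macroglial cells in these samples, oligodendrocytes of the juvenile, adult and aged libraries were higher in myelin genes and lower in astrocyte genes. Astrocytes were 1927 cells with at least 4 UMIs of Aqp4, Slc1a2, Gja1 and Ntsr2 and few of the member, endothelial, microglial, choroid plexus and ependymal genes. In the 9 libraries with at least 10 cells of both types, 7 of 483 genes at or above 100 CPM in oligodendrocytes were at least 4-fold above astrocytes in every library (1.45%). CPM is the usual scaling of a gene's UMIs by all UMIs of the cells of 1 type in a library. Without the EAE libraries, a choice made after seeing their members, 58 of 714 genes met this in the remaining 7 libraries (8.12%). Since the cells were chosen on myelin genes, these counts describe the choice.

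Among the genes with the largest lowest ratio over these 7 libraries were Mbp (lowest ratio 47.9, median 481), Mal (40.02 and 99.2), the plasmolipin gene Pllp (27.7 and 31.6) and the tubulin gene Tubb4a (26.1 and 120). Others were Cnp, a myelin phosphodiesterase, with a lowest ratio of 22.6, Ppp1r16b, a phosphatase subunit, with 20.8, Tmem151a with 15.6, the myelin tetraspanin gene Tspan2 with 15.1, Aplp1 with 14.1, Lgi3 with 12.3 and the choline transporter gene Slc44a1 with 11.3. Astrocytes with fewer than 3 UMIs of a gene were set to 3, the count that 0 allows, so their ratios are lower bounds. Leaving out the genes that chose either cell type, 536 of 18985 genes with a UMI in these cells were higher than in astrocytes in all 7 libraries (2.82%) and 1108 lower (5.84%), genes of very low level included. Of 24 such myelin protein genes 20 were higher in all 7 libraries, 16 of them at least 4-fold in each. All 6 such genes of the astrocyte list were lower in all 7. Of 12 genes of metabolic support 4 were higher in all 7, of 15 genes of myelin lipids 9, and of 15 genes of class I antigen presentation 5 were lower in all 7 and none higher.

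**Figure D3:**
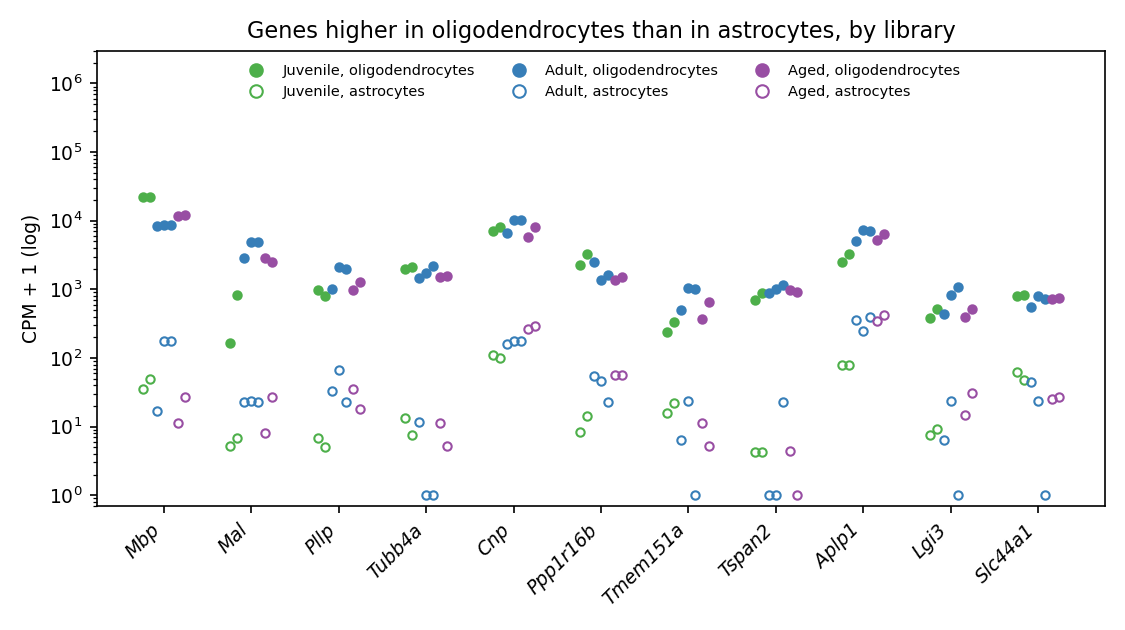
CPM plus 1 (log y axis) of the 11 genes named for their lowest ratio, in oligodendrocytes (filled) and astrocytes (open) of the 7 juvenile, adult and aged libraries with at least 10 cells of both types, 1 point per library. Filled points lie above all open points for each of the 11 genes.

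Mbp RNA was also found in endothelial cells and microglia. Mbp in endothelial cells was at 31.8, 72.0 and 68.4 CPM in Adult 1 to 3, between 8.27 and 28.0 CPM in juvenile, at 13.8 and 18.7 CPM in aged, and at 2.89 and 3.16 CPM in EAE libraries. In microglia it was at 58.5, 99.1 and 92.9 CPM in Adult 1 to 3, between 37.0 and 60.1 CPM in juvenile, at 23.3 and 33.4 CPM in aged, and at 20.1 and 16.9 CPM in EAE libraries. These levels are far below the 8444, 8533 and 8572 CPM of adult members. In the other direction, Ttr, the transthyretin gene of the choroid plexus, had UMIs in all 104 adult and all 45 juvenile members, at 8229, 7535, 5999.8 and 5985 CPM in juvenile, 43743, 13502 and 24954 CPM in adult, 5609 and 6106 CPM in aged and 4702 and 4338 CPM in EAE members. Adult 1, with the fewest adult members, was the highest in Ttr.

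Juvenile members carried genes of several stages. Mag had a UMI in 44 of 45 and Mbp in 44, but Mog in 19, Mobp in 22, Ermn in 9 and Opalin in 7. Gpr17, the receptor of committed precursors, had a UMI in 36 of the 45, Neu4, a sialidase, in 22, the growth factor gene Bmp4 in 18 and the proteoglycan gene Vcan in 18. None of the 45 had a UMI of the early precursor genes Pdgfra or Cspg4, which allows up to 6.67% of members with a UMI at these depths and sets no limit on cells that express the genes. No adult, aged or EAE member had a Gpr17 UMI, which allows up to 2.88%, 11.5% and 6.12% of members with one. The EAE value sets no such limit for oligodendrocytes, since 42 of the 49 EAE members are Ermn-only members. Gpr17 was thus found in juvenile members alone. The name of mature cells therefore does not hold for most juvenile members.

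Among the 44 juvenile members with at least 4 UMIs of Mog, Mag and Mobp, 25 had no Mog UMI. Of these 25, Gpr17 was present in 19, the transcription factor gene Tcf7l2 in all 25, Enpp6, a choline phosphodiesterase of newly formed cells, in 18, and Opalin in none. Of the 19 with Mog, 17 had Gpr17, 13 had Tcf7l2, 16 had Enpp6, 7 had Opalin and 15 had Mobp. The cells with Mog were also deeper, with a median of 6054 UMIs against 2114, so a share of cells with a UMI is not comparable between them. Pooled over cells, Gpr17 was at 1063 CPM without and 275 CPM with Mog, Tcf7l2 at 4017 and 1798 CPM, Bcas1, a gene of early myelinating cells, at 1394 and 877 CPM, and Mbp at 13446 and 21442 CPM. The cells with Mog include members of Juvenile 3 and 4 with 32105, 22506 and 22023 UMIs, which weigh heavily in the pooled values. Mog had a UMI in 7 of 14, 6 of 22, 5 of 6 and 1 of 3 members of Juvenile 1 to 4. The split by Mog therefore also differs by library, and the 2 cannot be told apart. The split uses Mog, so these values describe it and carry no test.

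The comparison of juvenile with adult oligodendrocytes asks how the cells that remained differed between active myelination and adulthood. Cells were summed per library, and libraries with at least 10 members entered the test, which were Juvenile 1 and 2, Adult 1, Adult 2 with 3 as 1 unit, both aged and both EAE libraries. Of 2095 genes that passed a filter on low counts, 637 (30.4%) were called at an adjusted p of 0.05 (edgeR quasi-likelihood test, Benjamini-Hochberg), 313 higher (14.9%) and 324 lower (15.5%) in juveniles. The median log2 fold change of all genes tested was 0.00, and 0.12 with another scaling (RLE), with which 376 were higher and 267 lower. The filter was run over all conditions. Genes that passed it through the EAE members alone are therefore among the 2095, and they enter these shares and the median. Juvenile 3 and 4, with 6 and 3 members, were not in the test, and their values stand beside it as samples it did not use. Both members called doublets were in these libraries, 1 in each, and 2 members of each had at least 4 UMIs of another class, which limits what their values can show. In Juvenile 1, 6.15% of UMIs of members were of globin genes, 99.0% of these in 1 member, against at most 0.204% in any other library. In Juvenile 3 and 4 the deepest member held 39.2% and 67.3% of the UMIs.

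The genes of precursors and newly formed cells that passed the filter were higher in juveniles. Gpr17 stood at 646, 651, 109.8 and 641 CPM in Juvenile 1 to 4 and at 0 in all 3 adult libraries, at least 102-fold higher when the adult group is set to 3 UMIs in sum (log2 fold change 9.13 ± 0.75 (SE), adjusted p = 2.41e-15). Bcan, which encodes the matrix proteoglycan brevican, was at 3018, 2472, 488 and 733 CPM against 16.7, 4.71 and 5.04 CPM, a ratio of 425 with a 95% counting interval of 144 to 2071 for 3 adult UMIs (adjusted p = 5.3e-23). The lowest juvenile library was above the highest adult one for both genes. Of 11 precursor genes in the files 5 passed the filter and all 5 were higher, beside 14.9% of all genes. Among them were Neu4 (210.2, 201, 12.2 and 61.1 CPM, 0 in adults), Bmp4 (225, 189, 61.0 and 366 CPM, 0 in adults) and Vcan (225, 201, 12.2 and 153 CPM, 0 in adults). The median log2 fold change of the 5 was 7.53, or 5.05 with the 4 genes that adults lacked set to their lower bounds, beside 0.00 for all genes tested. A gene could pass the filter through the condition where it was high alone, so these counts describe the genes tested and are no support for the list. This holds for the counts of the other lists too.

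Of 12 genes of newly formed oligodendrocytes in the files, 10 passed the filter. All 10 were higher in juveniles, beside 14.9% of all genes, with a median log2 fold change of 4.80. Tcf7l2, a Wnt pathway transcription factor of differentiating oligodendrocytes, was at 3349, 3643, 902 and 611 CPM in Juvenile 1 to 4 and at 117, 127 and 85.7 CPM in Adult 1 to 3 (4.91 ± 0.31, adjusted p = 3.75e-20). Enpp6 was at 1336, 828, 659 and 519 CPM against 33.4, 75.4 and 30.3 CPM (4.33 ± 0.41, adjusted p = 4.32e-13). Fyn, a kinase that starts local Mbp translation, was at 2012, 1573, 499.98 and 611 CPM against 16.7, 28.3 and 65.5 CPM (5.33 ± 0.38, adjusted p = 3.36e-18). Every juvenile library was above every adult library for these 3 genes, and Juvenile 3 and 4 lay between Juvenile 1 and 2 and the adults for all 3. In the libraries that the test did not use, 10 and 9 of the 10 genes lay above all adult libraries in Juvenile 3 and 4. The exception was Rras2, a small GTPase, at 255, 296, 61.0 and 0 CPM in juveniles and 0, 0 and 5.04 CPM in adults. These genes were already called with Juvenile 1 and 2, and the share of all called genes that did so is not given. Counts of this kind, here and below, describe the genes and are no support for a list.

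Myelin protein genes did not move together. Of 28 genes 24 could be tested apart from the 4 markers, and 4 were higher and 10 lower, with a median log2 fold change of -0.38. The share higher is near the 14.9% of all genes tested, so it is no result about the list, and 15.5% of all genes were lower. Of single genes, Mbp was higher in juveniles, at 21894, 21990.1, 15389.7 and 11543 CPM against 8444, 8533 and 8572 CPM (1.29 ± 0.18, adjusted p = 4.67e-08). Sirt2, a deacetylase of the myelin sheath, was at 7538, 6376, 3719 and 3848 CPM against 686, 882 and 887 CPM (3.05 ± 0.25, adjusted p = 8.84e-16). The cell adhesion gene Nfasc was at 2117, 2271, 378 and 1069 CPM against 251, 198 and 182 CPM (3.33 ± 0.29, adjusted p = 1.5e-14). For these and for Bcas1 (1502, 1218, 439 and 763 CPM against 184, 189 and 141 CPM) all 4 juvenile libraries lay above the 3 adult ones.

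Among the myelin genes that were lower in juveniles, Opalin was at 90.1, 106, 695 and 702 CPM against 1405, 2536 and 2491 CPM (-4.39 ± 0.35, adjusted p = 2.84e-16), and all juvenile libraries were below all adult ones. Of the 10 called lower, 6 lay below all adult libraries in Juvenile 3 and 6 in Juvenile 4, which did not enter the test, so not all of these directions were shared by the 4 juvenile libraries. Others called lower include Mal (-3.04, adjusted p = 0.0377), Hapln2, a link protein of the node of Ranvier (-4.79, 1.23e-08), the receptor gene Gpr37 (-2.82, 2.23e-10), Evi2a (-3.26, 1.28e-08), the connexin gene Gjb1 (-2.17, 0.000534), the small heat shock protein gene Cryab (-4.36, 0.0252), Pllp (-0.90, 0.00836) and Cntn2, which was at 0 in all juvenile libraries and is described with the named genes. Cnp (7058, 8233, 11853 and 11299 CPM against 6655, 10202 and 10251 CPM) and the tight junction gene Cldn11 (5676, 7145, 11646 and 9589 CPM against 4448, 8726 and 8380.1 CPM) did not pass the test, with adjusted p = 0.462 and 0.785.

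**Figure D4:**
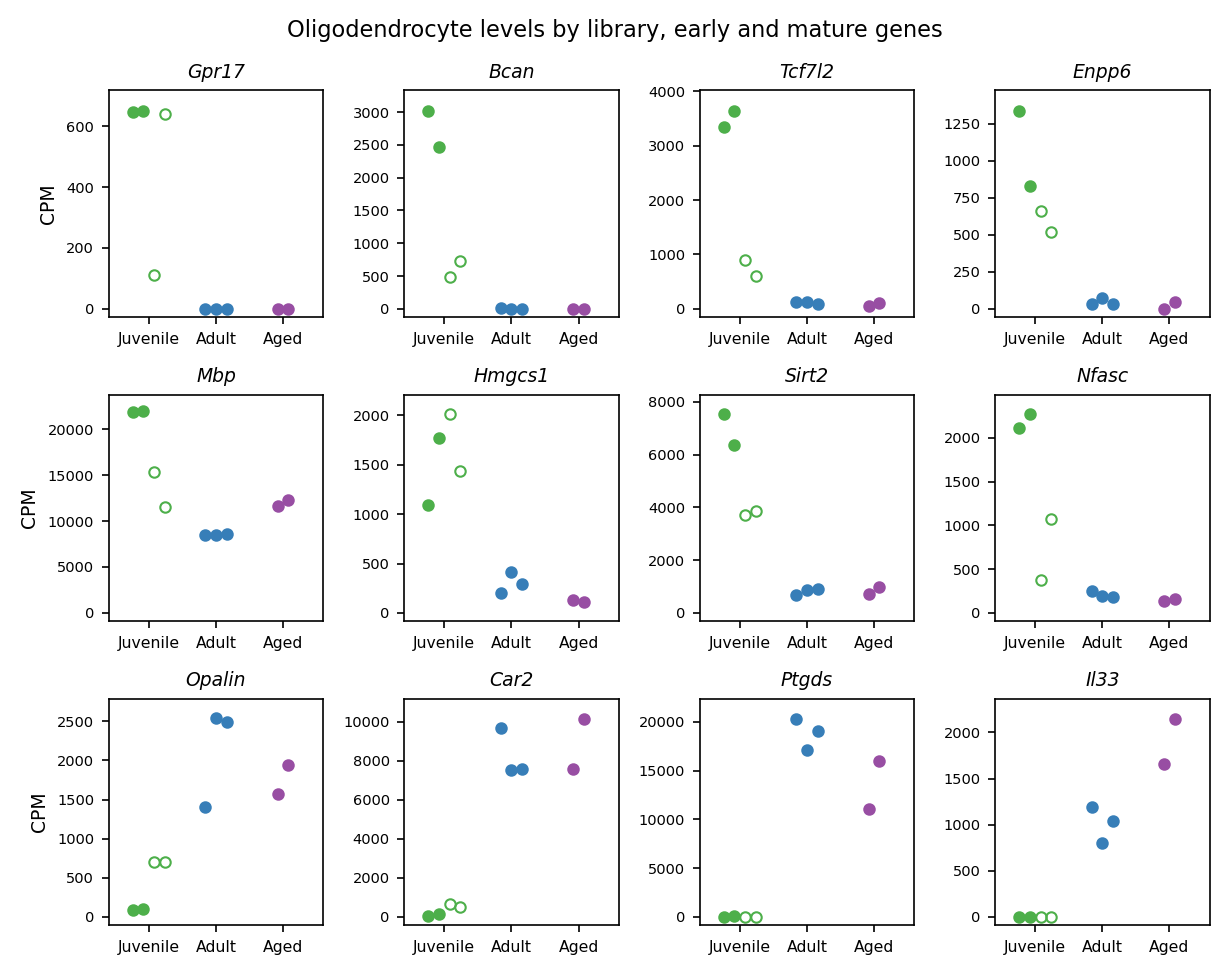
CPM in members (y axes, 1 panel per gene) of early genes (top row), myelin and sterol genes (middle row) and mature genes (bottom row), 1 point per library; open points are Juvenile 3 and 4, with 6 and 3 members, which did not enter the test. All 4 juvenile points lie above the adult points in the upper 8 panels and below them in the lower 4.

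Synthesis of cholesterol, a main lipid of myelin, was higher in juveniles for 5 of the 9 genes that passed the filter, of 23 in the list. It was lower for none (median log2 fold change 1.27), beside 14.9% of all genes higher and 15.5% lower. Hmgcs1, an early enzyme of the pathway, was at 1096, 1774, 2012 and 1435 CPM in Juvenile 1 to 4 and at 201, 415 and 287 CPM in Adult 1 to 3 (2.16 ± 0.30, adjusted p = 3.57e-08). Of genes that act late in the pathway, Sqle (1.85, 0.000679), Cyp51 (1.60, 0.00124) and Sc4mol (1.27, 0.00197) were higher too. All 5 lay above every adult library in Juvenile 3 and in Juvenile 4 as well.

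Genes of galactolipid and fatty acid metabolism went both ways, with 3 of 12 tested higher and 4 lower of 15 in the files, beside 14.9% and 15.5% of all genes. With so few genes these counts are no result about the list. The fatty acid synthase gene Fasn (2.04, adjusted p = 0.00633) and the elongation genes Elovl7 (1.59, 0.000834) and Hsd17b12 (1.67, 0.000406) were higher. Aspa, which frees acetate from N-acetylaspartate for lipid synthesis, was at 120.1, 23.7, 329 and 366 CPM against 936, 905 and 1003 CPM (-3.87 ± 0.43, adjusted p = 4.84e-11). The ceramide genes Cers2 (-0.98, 0.00939) and Degs1 (-1.001, 0.00652) and the lysophospholipase gene Enpp2 (-1.47, 3.47e-06) were also lower. Enpp2 was lower in juvenile endothelial cells too, at 318, 305, 402 and 499 CPM against 3123, 3112 and 3429.5 CPM in adult ones, and the part of this RNA in the difference was not tested.

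Genes of metabolic support and of mature subtypes were mostly lower in juveniles. Of 11 metabolic genes tested, of 12, none was higher and 7 were lower (median log2 fold change -3.06), beside 14.9% and 15.5% of all genes. Car2, the carbonic anhydrase of mature oligodendrocytes, was at 45.05, 130.1, 683 and 519 CPM against 9698, 7548 and 7553 CPM (-6.63 ± 0.32, adjusted p = 1.12e-20). Glul, glutamine synthetase, was at 180.2, 237, 232 and 549.7 CPM against 4632, 3083 and 3192 CPM (-4.27 ± 0.29, adjusted p = 5.94e-19). Qdpr, which recycles tetrahydrobiopterin, was at 30.0, 71.0, 134 and 122 CPM against 2843, 2404 and 2884 CPM (-5.75 ± 0.36, adjusted p = 2.86e-20). All 4 juvenile libraries were below all 3 adult libraries for each. Ndrg1 (-4.38, 2.47e-12), the haem transporter gene Slc48a1 (-2.27, 2.24e-07) and the transferrin gene Trf (-3.06, 0.0419) were also lower, while ferritin heavy chain, Fth1, stood at 871, 6151, 12646 and 14169 CPM against 17608, 18791 and 16922 CPM and did not pass (adjusted p = 0.136).

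Ptgds, the prostaglandin D synthase of mature oligodendrocytes, had the smallest adjusted p of the comparison. It was at 15.02, 59.1, 12.2 and 0 CPM in Juvenile 1 to 4 and at 20299.6, 17122 and 19089.6 CPM in Adult 1 to 3 (-8.97 ± 0.32, adjusted p = 2.08e-26). Il33, an alarmin cytokine stored in the nucleus, had no UMI in any of the 45 juvenile members and was at 1187, 797 and 1044 CPM in adults, at least 47.9-fold lower with juveniles at 3 UMIs in sum (adjusted p = 3.56e-12). Of 10 genes of mature subtypes tested, 7 were lower and 1 higher, beside 15.5% and 14.9% of all genes. The higher gene was S100b, a calcium binding protein gene, at 616, 698, 634 and 1741 CPM against 33.4, 113 and 15.1 CPM (3.38 ± 0.42, adjusted p = 2.14e-09). The list's median log2 fold change was -4.12, or -3.45 with genes at 0 set to their bounds. Apod, a lipocalin, was at 15.02, 237, 1951 and 2259.8 CPM against 1522, 2423 and 1769.8 CPM, overlapped between the groups and did not pass (adjusted p = 0.176).

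Guidance and adhesion cues that oligodendrocytes show to axons were higher in juveniles for 4 of 8 genes tested, beside 14.9% of all genes, and 3 of the 4 lay above all adult libraries in Juvenile 3 and 3 in Juvenile 4. Sema5a, a semaphorin, was at 375, 343, 73.2 and 122 CPM against 0, 0 and 5.04 CPM, a ratio of 168 with a 95% counting interval of 28.9 to 6758 for 1 adult UMI (adjusted p = 4.68e-10). Sema4d (4.11, 8.46e-08), Sema6a (2.48, 0.000104) and the plexin gene Plxnb3 (3.04, 3.27e-09) were higher too, and the ephrin gene Efnb3 was lower (-1.48, 0.00197). The inhibitors of axon growth Rtn4 (1051, 1372, 1146 and 977 CPM against 1421, 1928 and 1583 CPM) and Omg (120.1, 225, 415 and 305 CPM against 217, 156 and 207 CPM) did not pass the test.

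Lineage factors differed in both directions, 3 higher and 2 lower of 8 tested, beside 14.9% and 15.5% of all genes. Here Tcf7l2, Myrf (1.10, adjusted p = 0.0269), which drives myelin gene transcription, and Zeb2 (1.005, 0.0181) were higher, and Olig1 (-0.77, 0.0355) and Nkx6-2 (-2.43, 9.58e-06) lower. Sox10, the factor needed at all stages, was at 375, 520.5, 317 and 153 CPM against 100.3, 415 and 363 CPM (adjusted p = 0.299). Of the 3 higher, 1 lay above all adult libraries in Juvenile 3 and all 3 in Juvenile 4, and of the 2 lower, 1 lay below them in each.

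The largest increases by the rule for named genes, besides Gpr17 and Bcan, were Gpr37l1, a receptor also known from astrocytes, at 661, 709.7, 512 and 458 CPM against 0 in all adults (at least 108-fold, adjusted p = 1.14e-14), and the reticulon gene Rtn1, at 1997, 1561, 622 and 611 CPM against 0, 0 and 5.04 CPM (ratio 825, counting interval 147 to 32690 for 1 adult UMI). Marcks, a membrane-bound actin regulator, was at 2628, 2046, 646 and 428 CPM against 16.7, 0 and 5.04 CPM (ratio 541, interval 149 to 4488). The others were Lrrc16a, 1810041L15Rik, also in the list of newly formed cells, and Dpysl4, each at 0 in adults and at least 67.4-, 50.8- and 47.7-fold higher. With DESeq2 neither Gpr37l1 (adjusted p = 0.205) nor Dpysl4 (0.18) was called. In adults at 836, 495 and 595 CPM, the hyaluronan-binding protein gene Tnfaip6 had UMIs in juveniles only in Juvenile 3 (0, 0, 36.6 and 0 CPM). Serpinb1a, Faim2, Gm21984 and Cntn2 had none in any juvenile member and were at least 16.6-, 18.1-, 12.7- and 13.3-fold lower, and Efhd1 was at 0, 0, 36.6 and 30.5 CPM against 485, 542 and 555 CPM. CPM is relative to all UMIs of the members, so fewer transcripts of a gene and more of the others cannot be told apart.

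Stress and interferon genes that were called were lower in juveniles, with 1 exception. Of 12 immediate early and stress genes tested, of 19, 5 were lower and 1 higher, beside 15.5% and 14.9% of all genes. The list median was -1.06. Among the lower were Dusp1, a phosphatase induced by stress (-1.47, adjusted p = 0.0111), and Jund (-2.52, 2.71e-07), and Jun was higher (1.27, 0.000368). Of the 5 lower, 5 and 3 lay below all adult libraries in Juvenile 3 and 4, and Jun lay above them in Juvenile 4 but not in Juvenile 3. Of 8 interferon genes tested, of 23, 4 were lower and none higher, beside 15.5% and 14.9% of all genes. In Juvenile 3 and in Juvenile 4, 3 of the 4 lay below all adult libraries. Ifi27 was at 30.0, 23.7, 48.8 and 91.6 CPM against 251, 174 and 202 CPM (-2.98 ± 0.61, adjusted p = 7.48e-05). The median of the interferon list was -2.62, or -1.26 with genes at 0 set to their bounds. Of 9 class I genes tested 1 was lower, a share below the 15.5% of all genes, with a list median of -1.02, or -0.07 with genes at 0 set to their bounds. This gene was B2m (150.2, 177, 97.6 and 153 CPM against 418, 212 and 303 CPM, adjusted p = 0.0241). Ly6a of the interferon list and Ly6c1 are also endothelial genes.

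Markers of other cells differed between these members too. The summed level of 10 astrocyte genes was 745 to 2748 CPM in Juvenile 1 and 2 and 2687 to 5685 CPM in adults, that of 8 endothelial genes 420.5 to 461 and 933 to 1020 CPM, and that of 6 choroid plexus genes 7547 to 8304 and 13624 to 44077 CPM. Their part in the calls was not tested beyond leaving out the members with at least 4 UMIs of another class, after which 497 of 1270 genes were called.

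The comparison of aged with adult oligodendrocytes asks what changed late in life. Of 2095 genes 7 (0.334%) were called, 4 higher (0.191%) and 3 lower (0.143%), with 161 at an unadjusted p under 0.05. The median log2 fold change of all genes was -0.04. The count moved widely with the libraries and units used. It rose to 32 when Aged 2 was left out, to 19 or 15 when Adult 1 or Adult 2 was, to 17 or 18 when Juvenile 1 or Juvenile 2 was, and to 14 or 16 when EAE 1 or EAE 2 was. Summing juvenile pairs gave 23 calls, each library as a unit 15, and DESeq2 4. With edgeR on the 2 conditions alone no gene was called. Leaving out members with at least 4 UMIs of another class left 1 call of 1270 genes tested. This took out 2 members of Aged 1, 1 each of Adult 2 and 3, 3 of Juvenile 1, and 28 and 15 of EAE 1 and 2, so that both EAE libraries fell below 10 members and left the fit, and the parts of these changes were not tested.

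Gstm1, a glutathione transferase, was at 100.3, 28.3 and 30.3 CPM in Adult 1 to 3 and 935 and 317 CPM in Aged 1 and 2 (log2 fold change 3.76 ± 0.59, adjusted p = 0.0021). In Aged 1, 21 of 35 UMIs were in 1 member, and without Aged 1 the gene was not called (adjusted p = 0.567). Sparc, a matrix protein gene, was at 100.3, 56.6 and 106 CPM against 481 and 271 CPM (2.02 ± 0.46, adjusted p = 0.0229). Over 23 alternatives Gstm1 was not called in 3 and Sparc in 7. Sparc was not called, among others, without Aged 1 (0.757), without Adult 2 (0.052) or with DESeq2 (0.999). In astrocytes Gstm1 was at 1577, 1558 and 1209.7 CPM in adult and 2589.8 and 2677 CPM in aged libraries. Sparc was at 414, 1269 and 281 CPM in adult and 319 and 413 CPM in aged astrocytes, so that Aged 1 members were above Aged 1 astrocytes. In microglia Sparc was at 2587 to 2992 CPM in adult and 2599 and 2630.2 CPM in aged libraries. In endothelial cells it was lower in aged libraries, at 1879, 2358 and 2298 CPM in adult and 1092 and 1047 CPM in aged ones. A list of 10 immune genes in members summed to 75.6 to 117 CPM in adult and 374 to 384 CPM in aged libraries. The astrocyte genes in members summed to 2687 to 5685 CPM in adult and 5066 to 8119 CPM in aged libraries. Another gene called higher, Aldoc, is itself an astrocyte gene, with 33.4, 9.43 and 5.04 CPM in adult and 320.5 and 67.8 CPM in aged members. In Aged 1, 1 member had at least 4 UMIs of the genes that defined astrocytes, while no member of Aged 2 or of the adult libraries did. Its own part in these calls was not tested.

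Of the 3 genes lower in aged members, mt-Rnr2, the large mitochondrial ribosomal RNA, was at 1806, 1457 and 1745 CPM in Adult 1 to 3 and 775 and 678 CPM in Aged 1 and 2 (-1.32 ± 0.27, adjusted p = 0.00747). Marcksl1, a relative of Marcks, was at 234, 448 and 434 CPM against 134 and 45.2 CPM (-2.20 ± 0.52, adjusted p = 0.028). Enpp2, autotaxin, which oligodendrocytes and choroid plexus both make, was at 4832, 2744 and 2969.8 CPM against 2029.8 and 1606 CPM (-1.17 ± 0.25, adjusted p = 0.0122). The groups did not overlap for any of the 3, but the rule for naming genes required this of the units, so it is no added result. Over the 23 alternatives each gene was tested in, Enpp2 was not called in 8, Marcksl1 in 6 and mt-Rnr2 in 4. None of them was called with DESeq2, Enpp2 was not called without Adult 1 (adjusted p = 0.441) or without Aged 2 (0.051), Marcksl1 not without Aged 2 (0.269), and mt-Rnr2 not without Aged 1 (0.065). In other cells of the same libraries mt-Rnr2 was at 613, 1224 and 951 CPM in adult and 579.8 and 600.1 CPM in aged astrocytes, and at 611, 892 and 980.2 CPM in adult and 431 and 523 CPM in aged microglia. In endothelial cells the groups overlapped, at 707, 1107 and 1142 CPM in adult and 749.7 and 783 CPM in aged libraries. Enpp2 was also lower in endothelial cells of aged libraries (924 and 1262 CPM against 3123, 3112 and 3429.5 CPM in adults), and Ttr was lower in aged members as given above. The part of this RNA in the difference was not tested.

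**Figure D5:**
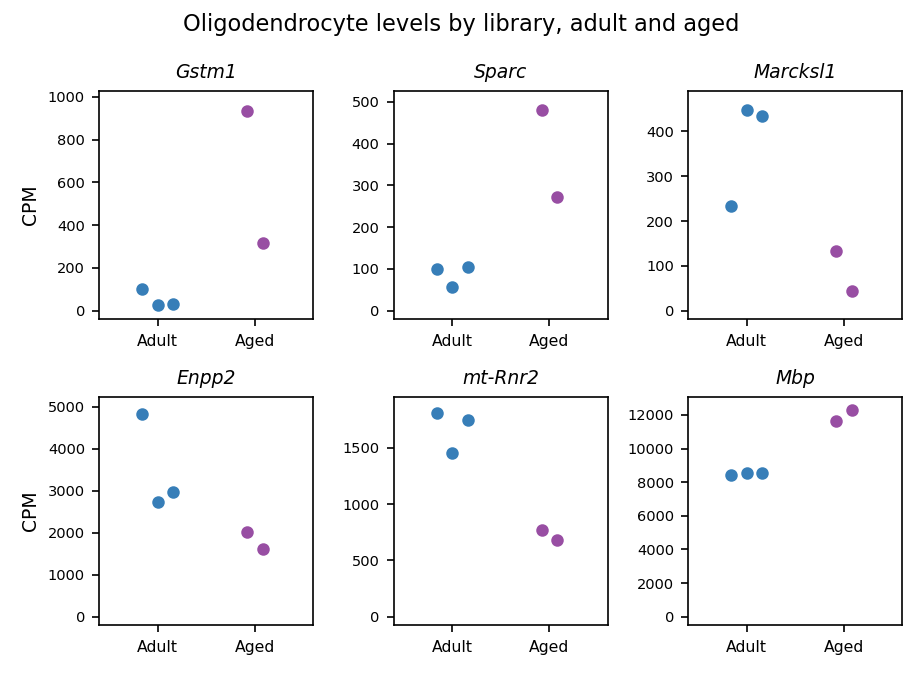
CPM in members (y axes, 1 panel per gene) of 5 genes called in the comparison of aged with adult oligodendrocytes and of Mbp, 1 point per library (Adult 1 to 3, Aged 1 and 2). The points of the 2 conditions do not overlap in any panel. For the 5 called genes the rule for naming them required this of the units, and Mbp did not pass the test.

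The myelin genes did not pass this test. Mbp was at 8444, 8533 and 8572 CPM in adult and 11618 and 12279.8 CPM in aged libraries (0.39 ± 0.18, adjusted p = 0.622), and both aged values lay above all adult ones. The share of all genes tested without overlap is not given, so this, and the same for Il33 below, is description only. None of the 24 myelin protein genes tested was called (median log2 fold change -0.25), none of 8 lineage factors (-0.13), none of 11 genes of metabolic support (-0.04) and none of 10 genes of newly formed cells (-0.70, or -0.52 with genes at 0 at their bounds). Of 12 lipid genes Enpp2 alone was called. None of 9 sterol genes was called. All 9 had a negative value, with a median of -1.12, beside -0.04 for all genes tested. The share of all genes with a negative value is not given, so this count is no result about the list. Hmgcs1 was at 201, 415 and 287 CPM in adults and 134 and 113 CPM in aged libraries (-1.41 ± 0.49, adjusted p = 0.245).

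Genes linked to disease-associated oligodendrocytes were not called in aged members either. Of 16 genes 7 passed the filter, with a median of 0.72. Il33 was at 1187, 797 and 1044 CPM in adult and 1656 and 2148 CPM in aged libraries, where both aged values were above all adult ones (0.79 ± 0.29, adjusted p = 0.329). The kinase gene Sgk1 was at 836, 226 and 182 CPM against 1095 and 1515 CPM (1.54 ± 0.80, adjusted p = 0.77). None of 9 class I genes (median -0.01, or 0.00 with bounds) or of 8 interferon genes (0.53) was called.

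Whether ageing changed oligodendrocytes and astrocytes differently was tested by the interaction of cell type and age in the same units. It was called for 13 of 3310 genes (0.393%), 12 with a more positive change in oligodendrocytes (0.363%) and 1 with a more negative one (0.0302%). For Ptgds the interaction was 3.46 ± 0.50 (adjusted p = 5.74e-08). In oligodendrocytes it was at 20299.6, 17122 and 19089.6 CPM in adult and 11030.4 and 16011 CPM in aged libraries, in astrocytes at 1033, 16093 and 1447 and 142 and 221 CPM, so among adult libraries the astrocyte level was high in Adult 2, with 20 astrocytes. Gsn, gelsolin, an actin-severing protein of myelinating cells, was the 1 gene in the other direction (-1.93 ± 0.49, adjusted p = 0.0251), at 1003, 2055 and 1987 CPM in adult and 267 and 520.1 CPM in aged members and at 96.9, 1113 and 64.8 and 222 and 281 CPM in astrocytes. The remaining 11 include Sparc (2.74), Gstm1 (2.63) and Mlc1 (7.69), an astrocyte gene whose 11 UMIs in aged members were all in 1 member of Aged 1. Whether this is the Aged 1 member with at least 4 UMIs of the genes that defined astrocytes is not given. Without Aged 1, 2 genes were called.

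Shares of members with a UMI were compared after thinning each cell to 1000 UMIs, with shallower cells left out. Ptgds was then found in 16 of 16, 36 of 41 and 38 of 39 members in Adult 1 to 3, in 10 of 11 and 13 of 13 aged members, and in 1 of 14 and 1 of 22 members of Juvenile 1 and 2. In endothelial cells, which should lack it, the share was 33.7%, 18.6% and 19.5% in Adult 1 to 3, 4.41% and 6.91% in aged, and 1.26% and 2.18% in Juvenile 1 and 2 (unthinned median depths of 3066 to 3551.5 UMIs in adult endothelial cells and 2431.5 to 5418 in adult members). The adult share in members was far above this background, and the juvenile values rest on 1 cell each.

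Opalin was found in 68.8%, 80.5% and 84.6% of adult members and in 63.6% and 69.2% of aged members, beside 0.428%, 0.559% and 0.740% of adult endothelial cells, and in 0 of 14 and 0 of 22 juvenile members, which allows shares with a UMI of up to 21.4% and 13.6%, beside 14.3% and 9.09% before thinning. These low shares depend on the random draw: a second draw of the same 14 and 22 cells gave 1 and 1 for Opalin, 0 and 0 for Ptgds and 1 and 1 for Car2. Il33 was found in 43.8%, 41.5% and 59.0% of adult and in 54.5% and 84.6% of aged members, with at most 0.218% of endothelial cells in these libraries. The intervals of the aged and adult shares overlapped, such as 54.6 to 98.1% in Aged 2 and 42.1 to 74.4% in Adult 3. Before thinning, Il33 was found in 68.3% to 82.1% of adult and in 72.7% and 92.3% of aged members. Car2 was found in 93.8%, 95.1% and 100% of adult and in 90.9% and 100% of aged members, but in 14.3% and 4.55% of juvenile members, no more than the 21.2% and 18.2% of endothelial cells there. Serpina3n, a marker of disease-associated oligodendrocytes, was found in no adult or aged member after thinning.

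The EAE comparison set mostly Ermn-only members against adult oligodendrocytes. Of 2095 genes 1275 (60.9%) were called, 681 higher (32.5%) and 594 lower (28.4%). All 24 myelin genes tested were lower (median log2 fold change -3.01, all genes 0.02) and the largest increases were genes of lymphocytes, Gzma, Rac2, S100a4, Cd3g, Cd52, Tnfrsf4, Lat and Lsp1. Cd52, a lymphocyte surface glycoprotein, was at 0, 4.71 and 0 CPM in Adult 1 to 3 and at 3217 and 2995 CPM in EAE 1 and 2, and 10 immune genes summed to 75.6 to 117 CPM in adult and 4328 to 6205 CPM in EAE members. The largest decreases by the same rule were mt-Nd3, Tm7sf3, Srcin1, Ipo13, Dip2a, Gm7180, Cdc42ep1 and Gm22743, each at 0 in both EAE libraries. No fit of EAE members with at least 4 UMIs of Mog, Mag and Mobp could be made, since 5 and 2 cells are below the minimum of 10 per unit.

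The 5 EAE members with a Mog UMI therefore give values with no test, set beside the 95 adult members with a Mog UMI. Several of their myelin genes were at like levels: pooled over cells, Mbp was at 9387 CPM in EAE and 8498 CPM in adult, Opalin at 2653 and 2391 CPM, Mal at 5255 and 4695 CPM, and Cldn11 at 9183 and 8113 CPM. The 4 markers of the rule differed more. Mobp was at 7245 and 3461 CPM, Mog at 2194 and 3129 CPM, Mag at 2908 and 4105 CPM, and Ermn at 1020 and 1425 CPM. Il33 was at 918 and 953 CPM. Car2 was at 3418 and 7917 CPM, and Trf at 3367 and 7763 CPM. Ptgds was at 64588 CPM against 18371 CPM, 3.52 times the adult level.

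Genes of class I antigen presentation were at high levels in these 5 cells. The 15 genes summed to 25254 CPM, against 616 CPM in the 95 adult and 647 CPM in the 22 aged members with a Mog UMI. The sum was 33723 CPM in the 3 cells of EAE 1 and 8953 CPM in the 2 of EAE 2, so the pooled value rests mainly on EAE 1. B2m, beta-2 microglobulin, had 108, 43 and 3 UMIs in the 3 cells of EAE 1 and 23 and 3 in the 2 of EAE 2, 11939 and 3879 CPM in the 2 libraries and 9183 CPM pooled, against 274 CPM in adults. H2-D1, a class I heavy chain, had 87, 51, 6, 20 and 4 UMIs, 8571 CPM against 183 CPM, and H2-K1, another, was at 1989.7 CPM against 47.9 CPM. A pair of cells in EAE 1 and 1 in EAE 2 carried most of these UMIs, and the remaining pair had 3 B2m UMIs each. In EAE astrocytes B2m was at 3229 and 2970.0 CPM against 613, 957 and 583 CPM in adults, and H2-D1 at 1813 and 1681 against 258, 556 and 367 CPM.

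Further genes were higher in the same pooled cells. H2-T23, a nonclassical class I gene, was at 2704 CPM against 23.9 CPM and the immunoproteasome gene Psmb8 at 1173 against 6.53 CPM, 23 UMIs against 3. These values rest on EAE 1, where H2-T23 was at 4031 CPM and Psmb8 at 1706 CPM, against 149 CPM from 1 UMI of each gene in EAE 2, and 47 of the 53 H2-T23 UMIs were in 1 cell. The cell cycle inhibitor gene Cdkn1a had 31, 15, 0, 0 and 3 UMIs, 3566 CPM in EAE 1, 448 CPM in EAE 2 and 2499.9 CPM pooled, against 19.6 CPM. Sgk1 was at 4652 and 3283 CPM in the 2 libraries and 4183 CPM pooled, against 281 CPM. The 23 interferon genes summed to 4109 and 1641 CPM in the 2 libraries, against 759 CPM in adults. The 7 class II genes had 15 UMIs in all (765 CPM against 95.7 CPM), and their member Cd74, the invariant chain, was at 306 CPM in these cells, below its 497 and 2074 CPM in astrocytes of EAE 1 and 2. None of the 5 had a UMI of the leukocyte gene Ptprc, of Cd3e or of the microglial gene Aif1, and the immune gene Cd52 had 2 UMIs in 1 cell and 1 in another. At 2386 to 6090 UMIs per cell these zeros leave low levels undetected.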

How the data were processed

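For each library the authors deposited a table of raw UMI counts of genes in the barcodes they took as cells, as whole numbers without normalization. The submitters' processing notes name bcl2fastq 2.19.1.403, UMI-tools 0.5.3, STAR 2.5.3a and Subread featureCounts 1.6.1 with genome mm10. All 26921 genes were kept as the files name them. Gene positions are from GENCODE M21 (GRCm38). The members, the gene lists and the tests were chosen with earlier results of these data known, so no pattern here is independent support of one already seen. The symbols Sc4mol and Ppap2a stand for Msmo1 and Plpp1, and Ugt8a, Lhfpl3 and 9630013A20Rik were not analysed here.

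Counts of members were summed per library, with Adult 2 and 3 as 1 unit, and units of at least 10 members were compared in 1 fit over all conditions (8 units, 4 residual degrees of freedom) with edgeR 4.0.16 (R 4.3.3, limma 3.58.1), using TMM scaling, filterByExpr and the robust quasi-likelihood F test with Benjamini-Hochberg adjustment over all genes tested. The 8 genes of the rule stayed in library sizes but out of the calls. The interaction with astrocytes had the unit as a block. Log2 fold changes are given ± SE. CPM values are plain shares of the UMIs of the members. Besides list members, the text names up to 8 called genes a direction, ranked by size of log2 fold change, provided that units did not overlap and the higher group reached 50 CPM, and 12 genes for the comparison with astrocytes, ranked by lowest ratio, without genes of the rules or of other cell types. Aldoc, Gsn, Ptgds and Mlc1 in the results on aged mice, and genes of the 5 EAE members with a Mog UMI, were named after their values were seen. Some genes that this rule or a list would name are not reported here. Alternatives included DESeq2 1.42.0, other scalings and filters, other marker thresholds and leaving out each library. Doublets were called with Scrublet (scanpy 1.11.5, Python 3.11.15). The scripts were tested on simulated data. The number of members per library, 3 to 45, limits the precision of each level.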

Additional observations from a re-analysis of the deposited data

Results flagged for a closer look

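In EAE libraries 23.7% of cells with at least 3 Cd3 UMIs had an Ermn UMI, against 1.19% in adult, 3.11% in aged and 0% in juvenile libraries. Of the 1606 EAE cells, 53 had at least 4 Ermn UMIs. The Ermn-only members, 42 of the 49 EAE members, are such cells and were part of the EAE comparisons.

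The change with age differed between oligodendrocytes and astrocytes for 13 genes by the interaction test, and 2 of them were left when Aged 1 was taken out. The change in EAE differed for 832 genes (25.1%, 476 more positive in oligodendrocytes, 14.4%, and 356 more negative, 10.8%), and there the oligodendrocyte side is mostly the Ermn-only members.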

How the results depend on the processing

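The EAE share depended on how members were defined: its mean of 0.297% became 0.510% with at least 3 marker UMIs, 0.0786% with at least 8, 0.0494% after thinning cells to 1000 UMIs and 0.0424% with at least 4 UMIs of Mog, Mag and Mobp, the last chosen after seeing the data. The adult mean of 0.825% became 1.47% without the limits on endothelial and microglial genes. The juvenile and aged means moved by less than 1 SD under these settings. Leaving out 1 library gave 0.247 to 0.510% in juvenile, 0.804 to 1.15% in adult, 0.236 to 0.295% in aged and 0.210 to 0.385% in EAE samples. The count of genes above astrocytes went from 7 to 58 without the EAE libraries, also chosen after seeing the data. Calls for EAE (1275) became 2057 with no filter on low counts and 579 with at least 8 marker UMIs. Calls for aged members (7) became 12 with no filter, 4 with DESeq2, 15 with each library as a unit, 23 with juvenile pairs summed, 0 with edgeR on the 2 conditions alone and 1 without members with markers of another class, and were 5 with at least 4 UMIs of Mog, Mag and Mobp and 5 without the EAE libraries. Juvenile calls (637) became 302 with DESeq2 (186 higher, 116 lower) and were 547 with at least 4 UMIs of Mog, Mag and Mobp, 549 without the EAE libraries and 615 with juvenile pairs summed. The interaction with astrocytes in EAE (832) became 518 with no filter, and that with age (13) became 2 with no filter and 2 without members with markers of another class, and was 15 with at least 4 UMIs of Mog, Mag and Mobp. Leaving out 1 library gave 1108 to 1592 calls for EAE, 5 to 32 for aged (17 and 18 without Juvenile 1 and 2, 19 and 15 without Adult 1 and 2, 32 without Aged 2, 14 and 16 without EAE 1 and 2), 444 to 760 for juvenile, 519 to 832 for the interaction in EAE (519 without EAE 1) and 2 to 20 for that with age (2 without Aged 1, 20 without Aged 2, 7 without Juvenile 1 or 2, 5 without Adult 2 and 8 without Adult 3). A lone library left in a condition is assumed to vary like the others. A replicate block gave 1557 EAE, 16 aged and 709 juvenile calls. Deviations of libraries from the mean of their condition correlated at -0.02 to 0.12 for the same number and at -0.12 to 0.07 for others. Where a condition had 2 libraries these deviations mirror each other, so the ranges cannot show whether libraries were paired. The labels give only a replicate number, and the pairing is not used. With each named gene under each alternative counted as 1 result, 366 juvenile results kept their call and 2 lost it (Dpysl4 and Gpr37l1 with DESeq2), as did 108 and 28 aged results and 314 and 0 EAE results, and none turned direction. Fits with at least 30 members per unit, and of EAE members without markers of another class or with at least 4 UMIs of Mog, Mag and Mobp, were not run since too few units remained.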
